A study of Mus musculus with 32 samples.

Results

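Integrins are the receptors that bind cells to the extracellular matrix, and each one is a pair of an α and a β subunit. Transcripts of 10 subunits were followed here, 5 α (Itga2, Itga3, Itga5, Itga6 and Itgav) and 5 β (Itgb1, Itgb4, Itgb5, Itgb6 and Itgb8), out of 17757 genes counted. They were chosen by symbol, as the subunits through which epithelial and carcinoma cells commonly bind laminin, collagen, fibronectin and vitronectin and activate latent TGF-β. The rule uses no measured value, but earlier results of these data were known when it was set. All 10 were found in the count table.

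The β1 subunit pairs with many α subunits, so the α partner sets the ligand. The pair α2β1 binds collagen, α3β1 and α6β1 bind laminins, and α5β1 binds fibronectin. The αv subunit pairs with β1, β3, β5, β6 or β8, of which β6 and β8 are known for releasing active TGF-β from its latent complex. The β4 subunit pairs with α6 alone, and α6β4 anchors epithelial cells to laminin through hemidesmosomes, where plectin links it to keratin filaments.

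The cells were 4T1, a mouse mammary carcinoma line labelled as triple-negative breast cancer, grown as spheroids for 5 days in lung-like medium, which holds nutrients at lung concentrations. Of 4 conditions, ASP shSCR had a scramble shRNA and 700 µM aspartate and NoASP shSCR the scramble shRNA without added aspartate. ASP shGRIN2D and ASP shDHPS had the same aspartate and an shRNA against Grin2d, a subunit of the NMDA receptor, or Dhps, the enzyme that starts the hypusine modification of the translation factor eIF5A. The shRNAs were carried by lentivirus, and the silenced cells were puromycin-selected populations, not clones. Each condition had 4 independent spheroid pellets. Each pellet gave a polysomal library, of mRNA with more than 3 ribosomes, and a sub-polysomal library, of mRNA with fewer than 3, which made 32 libraries of 12870563 to 25639437 counts (median 18168765). The medium for spheroids was described as containing Matrigel, collagen I and horse serum, which would supply matrix ligands from outside. The paper's Methods for the polysome profiling do not list these additions.

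Levels are given as CPM, the counts divided by a library size that was TMM-scaled within each fraction. The translation ratio of a pellet is the log2 of its polysomal over its sub-polysomal CPM after TMM scaling over all 32 libraries, so it is not the quotient of the levels printed here. Both are relative to the other mRNAs in the libraries. They do not measure a change in translation shared by all mRNAs. A lower level may mean less RNA per cell or fewer cells of a type, which cannot be told apart in bulk libraries.

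The labels were checked on the silenced genes. Sub-polysomal Dhps was at 9.5 ± 0.813 CPM in ASP shDHPS (SD, n = 4) and at 38.2 ± 4.06 in ASP shSCR, a log2 difference of −2.01 (edgeR, adjusted p = 1.11e-08). In the polysomal libraries the Dhps difference was −1.64 (edgeR, adjusted p = 0.0167), a call lost without ASP shSCR replicate 2 or ASP shDHPS replicate 1 or 3 (adjusted p = 0.0546, 0.0963 and 0.111). Grin2d had 2.37 ± 0.417 sub-polysomal CPM in ASP shGRIN2D against 4.34 ± 1.51 in ASP shSCR, and its log2 differences of −0.88 and, among polysomal libraries, −1.14 did not pass the threshold (edgeR, adjusted p = 0.232 and 0.263). Epithelial markers were abundant: all 5 (Epcam, Cdh1, Krt7, Krt8 and Krt18) were counted, with a summed level of 1807 to 8121 CPM per library (median 3507) and Krt8 highest. Of the markers of other cells, 1 of 4 for fibroblasts (Pdgfra), 2 of 5 for leukocytes (Cd68 and Ptprc) and 1 of 4 for endothelium (Pecam1) were counted, Ptprc with 0 to 21 and Pecam1 with 0 to 12 reads per library. The fibroblast sum was 6.16 to 36.7 CPM and the leukocyte sum, mostly Cd68, was 4.87 to 28 CPM per library.

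Among the polysomal libraries, that of ASP shSCR replicate 1 stood apart. On a scale set by 11046 genes in NoASP shSCR and both silenced conditions, with their sub-polysomal mean at 0 and their polysomal mean at 1, it lay at 0.372, and the other 15 polysomal libraries lay between 0.777 and 1.19. The 16 sub-polysomal libraries lay between −0.106 and 0.122. The tests of the subunits that involve ASP shSCR were repeated without this pellet, and the values are given for those on which the text turns.

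Ribosomes enter the coding sequence at the start codon, so the 5 subunits on which the results below turn are shown there, with 10 bases before the start codon in lower case, the start codon in capitals and 4 bases after it. The sequences are from 1 coding transcript per gene in GENCODE M21 (GRCm38), read 5′ to 3′ on the strand of the gene.
Itgb1: ctgcgaaaagATGaatt
Itgb4: gaggaggaggATGgcag
Itgb5: ggcgcgcatcATGccgc
Itga2: cagacccaagATGggac
Itga3: gcccgcagccATGggcc
In these 5 transcripts the base 3 before the start codon was a purine, A in Itgb1, Itgb4, Itgb5 and Itga2 and G in Itga3. The base after the start codon was G in Itgb4, Itga2 and Itga3, A in Itgb1 and C in Itgb5. Over all 10 subunits, 8 had the purine and 7 had the G, against 86.1% and 52.8% of the 12989 counted genes with a coding transcript and at least 10 bases before its start codon. In GRCm38, Itgb1 (ENSMUSG00000025809) lies at chr8:128685654-128733200 and Itgb4 (ENSMUSG00000020758) at chr11:115974709-116008412, both on the plus strand. Itgb5 (ENSMUSG00000022817) lies at chr16:33829665-33949338 on the plus strand. Itga2 (ENSMUSG00000015533) lies at chr13:114833081-114932100 and Itga3 (ENSMUSG00000001507) at chr11:95044474-95076801, both on the minus strand. The 10 transcripts had a median length of 4833.5 nt, against 2914 nt over the 13354 counted genes with a coding transcript, and 4 of 10 held an ATG in the 5′ UTR, against 52.6% of those 12989 genes.

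Transcript levels between subunits were compared as CPM per kb of the same transcripts. Over all 32 libraries the order was Itgb1 (173.8 CPM per kb), Itga3 (133.5), Itga6 (37.5), Itgb5 (32.4), Itgb4 (31), Itgav (9.81), Itga5 (6.99), Itga2 (6.28), Itgb6 (0.0982) and Itgb8 (0.0444). The laminin receptor chain α3 and the shared chain β1 were thus the most abundant subunits. The order differed between fractions. In the sub-polysomal libraries of ASP shSCR, Itga3 was at 101.6 ± 8.94 CPM per kb (SD, n = 4) and Itgb1 at 70.5 ± 3.94, whereas in the polysomal libraries Itgb1 was at 265.4 ± 41.5 and Itga3 at 161.4 ± 50.9. These neighbours lay more than both of their SDs apart in each fraction. Lower in the order, neighbours were counted as within their spread where the ranges of mean ± SD overlapped. In the sub-polysomal libraries of ASP shSCR this held for Itgb5 at 35.8 ± 2.48 and Itgb4 at 31.8 ± 5.18 CPM per kb, for Itgb4 and Itga6 at 26 ± 3.9, and for Itgav at 6.37 ± 1.35, Itga5 at 5.72 ± 0.849 and Itga2 at 5.24 ± 0.865. In the polysomal libraries Itga6 had the highest mean of this group at 46.7 ± 7.92, followed by Itgb4 at 34.3 ± 7.96 and Itgb5 at 29.5 ± 5.35. Then came Itgav at 12.8 ± 2.25, Itga2 at 8.99 ± 2.17 and Itga5 at 7.58 ± 1.73. By the same rule, Itga6 and Itgb4, Itgb4 and Itgb5, Itgav and Itga2, and Itga2 and Itga5 were within their spread there. The β chains of the TGF-β-activating pairs were near the limit of detection. Itgb6 had 0 to 28 reads per library, with 2 libraries at 0, and Itgb8 had 0 to 19, with 1 library at 0. The other 8 subunits had at least 278 reads in every library.

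The first question was how each subunit divided between the fractions. Itgb1 mRNA leaned to polysomes in all 16 pellets. Its pellet ratios were 1.17, 1.87, 1.80 and 1.99 in ASP shSCR (replicates 1 to 4), 1.37, 1.32, 1.67 and 1.92 in NoASP shSCR, 1.98, 1.81, 1.68 and 1.49 in ASP shGRIN2D, and 1.44, 1.60, 1.21 and 1.46 in ASP shDHPS. The 4 conditions overlapped. The fitted ratio was 1.71 in ASP shSCR, 1.57 in NoASP shSCR, 1.74 in ASP shGRIN2D and 1.43 in ASP shDHPS (edgeR, adjusted p = 1.28e-07, 2.05e-07, 3.69e-08 and 6.02e-07). Without replicate 1, the mean in ASP shSCR was 1.89 ± 0.0988 (SD, n = 3), against 1.71 ± 0.369 with it.

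In ASP shSCR, 4 of the 10 subunits passed the threshold toward polysomes, where 20.8% of all genes did, and 1 toward the sub-polysomal fraction, where 18.9% did. Besides Itgb1 they were Itgav at 0.82 (edgeR, adjusted p = 0.000367), Itga6 at 0.65 (adjusted p = 0.00352) and Itga2 at 0.57 (adjusted p = 0.0103), with Itgb5 at −0.49 in the other direction (adjusted p = 0.0394). Without replicate 1, Itgb5 was at −0.41 and no longer passed (edgeR, adjusted p = 0.106), and without replicate 4 neither Itgb5 (adjusted p = 0.203), Itga2 (0.0975) nor Itga6 (0.0546) did. Itgb5 also missed the threshold without replicate 1 of NoASP shSCR or of ASP shGRIN2D (edgeR, adjusted p = 0.0502 and 0.0531), with library totals only (−0.31, adjusted p = 0.306), with the GC trend described below removed (−0.31, adjusted p = 0.175) and without the pellet term (−0.47, adjusted p = 0.0663). Itga3, at 0.42 in ASP shSCR, passed there with library totals only (0.59, edgeR, adjusted p = 0.0482), with the GC trend removed (0.60, adjusted p = 0.0314) and without replicate 2 (0.66, adjusted p = 0.0497). In NoASP shSCR, 5 subunits passed toward polysomes (background 23.7%, and 20.6% in the other direction): Itgb1, Itga3 at 0.93, Itgav at 0.84, Itga5 at 0.75 and Itga6 at 0.51. In ASP shGRIN2D, Itgb1, Itga3 at 0.83, Itgav at 0.73 and Itga6 at 0.55 passed (background 23% and 20.4%). In ASP shDHPS, Itgb1, Itga3 at 1.04 and Itgb4 at 0.62 passed (background 21.8% and 21.3%). A call in 1 condition and none in another is not a test of their difference, which follows. Several of these calls were lost when 1 pellet was left out. In NoASP shSCR they were those of Itga3 and Itga5 without replicate 4 (edgeR, adjusted p = 0.0573 and 0.146) and of Itga6 without replicate 3 or 4 (0.0968 and 0.0569). In ASP shGRIN2D they were those of Itga3 without replicate 1 or 4 (edgeR, adjusted p = 0.0828 and 0.101) and of Itga6 without replicate 1 or 2 (0.125 and 0.0698). In ASP shDHPS it was that of Itgb4 without replicate 1, 3 or 4 (edgeR, adjusted p = 0.166, 0.0778 and 0.0793). The Itgb4 call there was also lost with the GC trend removed (0.40, edgeR, adjusted p = 0.113) and without the pellet term (0.64, adjusted p = 0.0504), and Itgav, at 0.38, passed with that trend removed (0.61, adjusted p = 0.00244). Calls were gained with that trend removed for Itgb4 in NoASP shSCR (0.60, edgeR, adjusted p = 0.0164, beside 0.0561) and for Itga5 in ASP shGRIN2D (0.63, adjusted p = 0.0172, beside 0.0526). Further settings gained calls for Itga2 in NoASP shSCR, for Itgb4 in NoASP shSCR and ASP shGRIN2D, and for Itga5 in both silenced conditions. The calls of Itgb1, those of Itgav in the 3 conditions where it passed and that of Itga3 in ASP shDHPS held in all 23 alternatives run. The median ratio of the 10 subunits was 0.432 in ASP shSCR, 0.645 in NoASP shSCR, 0.577 in ASP shGRIN2D and 0.472 in ASP shDHPS, beside −0.0439, 0, 0 and −0.0896 over all genes.

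**Figure D1:**
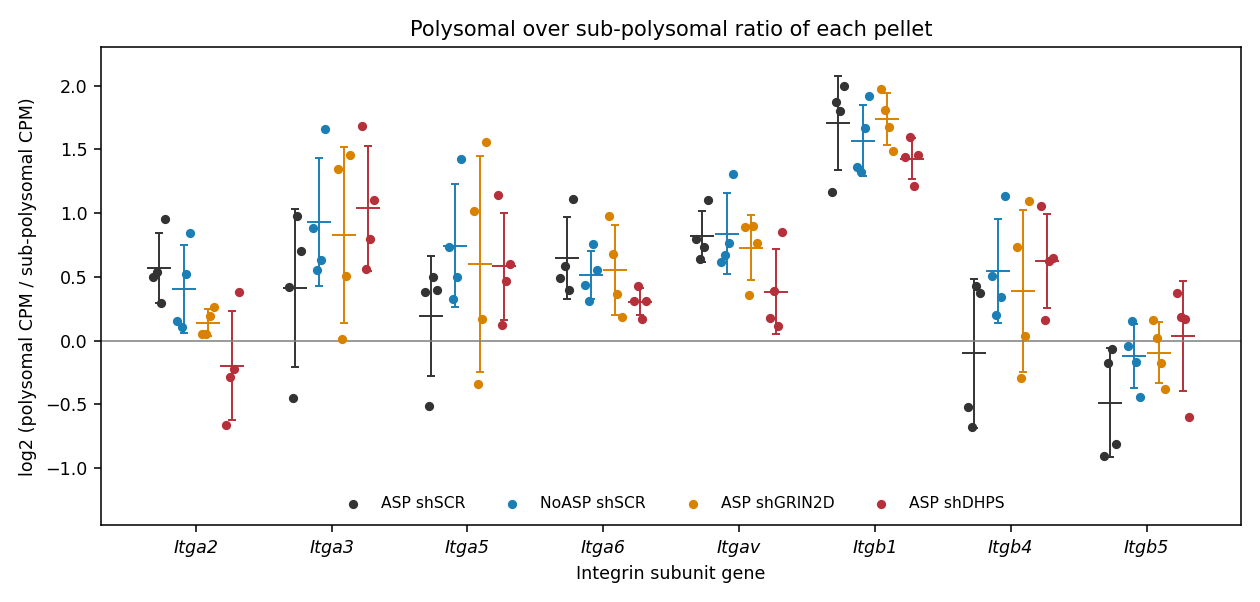
Translation ratio (log2 polysomal over sub-polysomal CPM) of the 8 better counted subunits in the 16 pellets, by condition, with the mean and SD of 4. Itgb1 is above 1 in every pellet, and Itgb6 and Itgb8, with few reads, are not drawn.

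The second question was whether aspartate, Grin2d or Dhps changed these ratios. ASP shSCR was compared with each other condition, so the 3 comparisons share its 4 pellets, and a positive value means a higher ratio in ASP shSCR. None of the 10 subunits passed the threshold in any of the 3 (edgeR quasi-likelihood test, adjusted over all genes). Over all genes, 0%, 0% and 0.208% passed against NoASP shSCR, ASP shGRIN2D and ASP shDHPS. At an unadjusted p under 0.05 there were 0, 0 and 2 subunits, and 343, 571 and 2416 genes in all (1.93%, 3.22% and 13.6%). DESeq2's Wald test also called 0 subunits in each comparison.

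Itga2, the collagen-binding α chain, had the largest ratio difference against ASP shDHPS among the 8 subunits with a median of at least 50 reads. Its pellet ratios were 0.50, 0.54, 0.30 and 0.95 in ASP shSCR, 0.15, 0.11, 0.52 and 0.84 in NoASP shSCR, 0.05, 0.05, 0.19 and 0.26 in ASP shGRIN2D, and −0.66, −0.28, −0.22 and 0.38 in ASP shDHPS. All ASP shSCR pellets were above all ASP shGRIN2D pellets, a separation in either direction that 1.92% of all genes had, and the highest ASP shDHPS pellet lay among those of ASP shSCR. The difference was 0.77 (SE 0.25) against ASP shDHPS (edgeR, adjusted p = 0.159), 0.43 (SE 0.25) against ASP shGRIN2D (adjusted p = 1) and 0.17 (SE 0.25) against NoASP shSCR (adjusted p = 1). Without ASP shSCR replicate 1 the Itga2 difference against ASP shDHPS was 0.76 (edgeR, adjusted p = 0.177).

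Itgb4, the hemidesmosome chain, had the opposite sign. Its pellet ratios were −0.53, −0.68, 0.43 and 0.37 in ASP shSCR, 0.50, 0.20, 0.34 and 1.13 in NoASP shSCR, 0.73, −0.29, 0.03 and 1.09 in ASP shGRIN2D, and 1.06, 0.16, 0.63 and 0.65 in ASP shDHPS. ASP shSCR split into a low and a high pair of pellets, and the high pair overlapped every other condition. The Itgb4 differences were −0.72 (SE 0.33) against ASP shDHPS (edgeR, adjusted p = 0.32), −0.65 (SE 0.33) against NoASP shSCR and −0.49 against ASP shGRIN2D (adjusted p = 1 in both). Without ASP shSCR replicate 1, the Itgb4 difference against ASP shDHPS was −0.62 (edgeR, adjusted p = 0.403).

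Of the other subunits, Itga3, Itga5 and Itgb5 had negative differences in the 3 comparisons. Those of Itga3 were −0.51, −0.42 and −0.62 against NoASP shSCR, ASP shGRIN2D and ASP shDHPS, those of Itga5 −0.55, −0.41 and −0.39, and those of Itgb5 −0.37, −0.40 and −0.52. Itgb1 differed by 0.14, −0.03 and 0.28. Itga6 differed by 0.13, 0.10 and 0.34, and Itgav by −0.02, 0.09 and 0.44. None of these passed, and the standard errors of the 8 better counted subunits were 0.24 to 0.36. Over 23 alternatives the Itga3 differences ran from −0.70 to −0.23, −0.695 to −0.15 and −0.81 to −0.21, in the same order. Those of Itga5 ran from −0.69 to −0.32, −0.73 to −0.09 and −0.54 to 0.01. Those of Itgb5 ran from −0.51 to −0.22, −0.54 to −0.24 and −0.73 to −0.12. Without ASP shSCR replicate 1 the differences were −0.53, −0.45 and −0.66 for Itga3, −0.63, −0.51 and −0.49 for Itga5, −0.25, −0.29 and −0.42 for Itgb5 and 0.30, 0.11 and 0.42 for Itgb1 in the same order, and none passed. The median difference of the 10 subunits was −0.194, −0.332 and 0.0845, beside −0.0164, −0.013 and 0.0125 over all genes, and that of the 8 better counted subunits was −0.194, −0.212 and −0.0526.

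**Figure D2:**
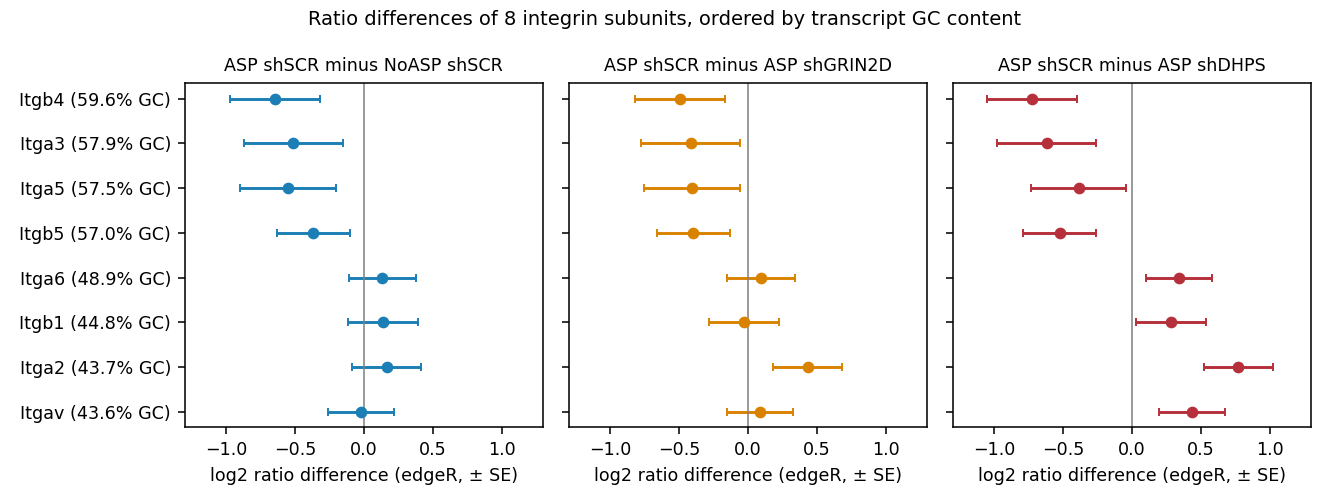
Difference in translation ratio (log2) of the 8 better counted subunits between ASP shSCR and the 3 other conditions, as the edgeR estimate with its standard error. Subunits are ordered by the GC content of their transcripts, and Itgb6 and Itgb8 are not drawn. Positive values are higher in ASP shSCR, and none of the 10 subunits passed the threshold in any of the 3 comparisons.

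The subunits differed in base composition, as did the ratio differences of other genes. Itgb4, Itga3, Itga5 and Itgb5 had transcripts of 59.6%, 57.9%, 57.5% and 57% GC, and Itga6, Itgb1, Itga2 and Itgav of 48.9%, 44.8%, 43.7% and 43.6%. Over the genes of known GC content that averaged 50 or more counts, the median ratio difference against ASP shDHPS was 0.49 under 45% GC, 0.18 from 45 to 50%, −0.177 from 50 to 55% and −0.39 from 55% up. Against NoASP shSCR the lowest and highest bins were at 0.101 and −0.178, and against ASP shGRIN2D at 0.0827 and −0.178. With this trend removed, a step chosen after the values had been seen, the difference against ASP shDHPS was 0.38 for Itga2 (edgeR, adjusted p = 0.731, the highest of 0.0516 to 0.731 over 23 alternatives), −0.32 for Itgb4, −0.21 for Itga3, −0.12 for Itgb5, 0.01 for Itga5, 0.26 for Itga6, 0.05 for Itgav and −0.05 for Itgb1. Against NoASP shSCR the Itgb4 difference was then −0.52, beside −0.65 as fitted, and that of Itga5 −0.41, beside −0.55. Against ASP shGRIN2D the Itga2 difference was 0.33, beside 0.43. None of the 10 subunits passed in any of the 3 comparisons with the trend removed.

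The composition trend varied from pellet to pellet. It was measured as the median ratio of the 2749 genes of at least 55% GC minus that of the 2407 genes under 45%. Its mean was −0.718 ± 0.36 (SD, n = 4) in ASP shSCR, −0.476 ± 0.125 in NoASP shSCR, −0.484 ± 0.331 in ASP shGRIN2D and 0.165 ± 0.537 in ASP shDHPS, and single pellets ran from −1.19 to 0.817. Across the 16 pellets, the Itga2 ratio correlated with it at Pearson's r = −0.767 and Spearman's rho = −0.682 (permutation tests, adjusted over 8 subunits, p = 0.00664 and 0.0386), with r = −0.518 without the 2 farthest pellets and r = −0.586 after centring on the condition. Itga3 correlated at r = 0.612 and rho = 0.576 (permutation, adjusted p = 0.0332 and 0.0473), with r = 0.624 without the 2 farthest pellets and 0.591 after centring. Itgb4 correlated at r = 0.581 and rho = 0.55 (permutation, adjusted p = 0.0359 and 0.0473), with 0.53 and 0.496. Of the 8 subunits, 4 passed on r, and of 10909 genes with a mean count of 50 or more, 30.5% had an r of at least 0.581 in either direction, the lowest of those 4. The other subunit that passed was Itgav at r = −0.611 and rho = −0.45 (permutation, adjusted p = 0.0332 and 0.0811), with r = −0.174 without the 2 farthest pellets, so that its relation rests on those pellets. Itgb1 at r = −0.503, Itga5 at 0.498 and Itgb5 at 0.5 (permutation, adjusted p = 0.0568 each) and Itga6 at −0.418 (adjusted p = 0.107) did not pass on r. On rho, however, Itgb1 at −0.538, Itgb5 at 0.562 and Itga6 at −0.535 passed (permutation, adjusted p = 0.0473 each). Itga5, at a rho of 0.5, did not (permutation, adjusted p = 0.0585). The permutations, here and for the pairs of subunits below, shuffled all 16 pellets without regard to condition. Their p-values therefore include differences between conditions, and the r after centring carries no test. The pellets share libraries and depth between the measures compared.

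**Figure D3:**
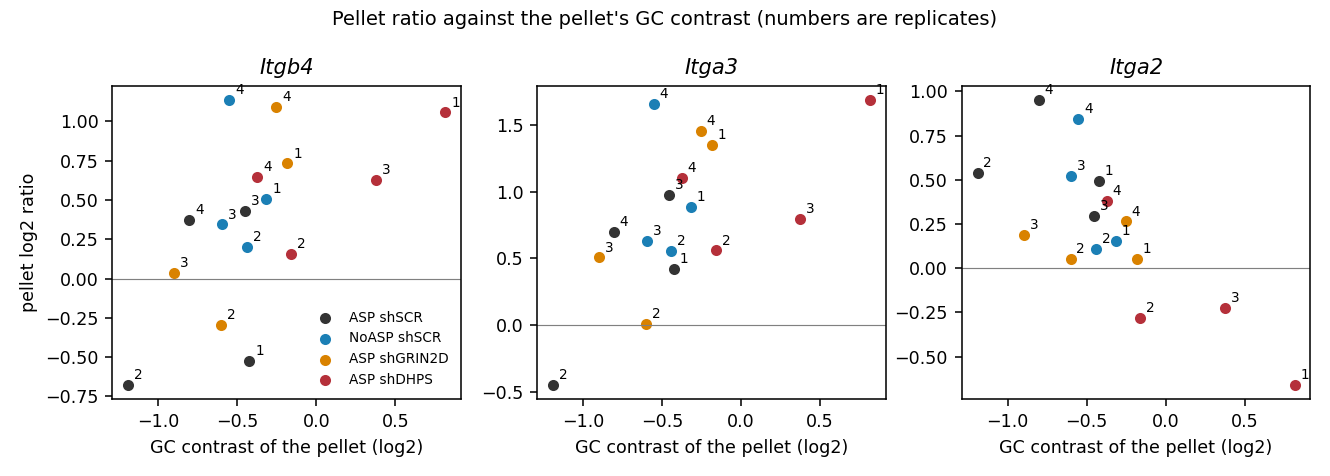
Translation ratio of Itga2, Itga3 and Itgb4 in the 16 pellets (vertical axis, log2) against the median ratio of genes of at least 55% GC minus that of genes under 45% in the same pellet (horizontal axis, log2), coloured by condition. Itga2 falls and Itga3 and Itgb4 rise along the axis, on which 3 of the 4 ASP shDHPS pellets lie farthest to the right.

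Some subunits also varied together from pellet to pellet. Among 28 pairs of the 8 better counted subunits, 7 passed on r, and 7.91% of all pairs of the 10909 genes reached the lowest r of those 7, 0.674, in either direction. The other 21 pairs did not pass, among them Itgb1 with Itgb4 at r = 0.00881 (permutation, adjusted p = 0.974). The ratios of Itga3 and Itga5 correlated at r = 0.949 and rho = 0.944 over the 16 pellets (permutation, adjusted p = 9.33e-05, from the smallest p these permutations can give, 1e-05). Itga3 and Itgb4 correlated at r = 0.944 and rho = 0.974, and Itga2 and Itgb5 at r = −0.81 and rho = −0.885 (permutation, adjusted p = 0.00056 for r). Without the 2 pellets farthest from the median, r was 0.943 for Itga3 with Itga5, 0.917 for Itga3 with Itgb4 and −0.707 for Itga2 with Itgb5, and after centring on the condition it was 0.961, 0.938 and −0.821. In all 4 conditions, replicate 2 had the lowest ratio of Itga3 and of Itgb4, and replicate 4 the highest of Itga2. The Itga3 ratio was −0.45 in replicate 2 of ASP shSCR and 0.98 in replicate 3, and 0.01 in replicate 2 of ASP shGRIN2D and 1.45 in replicate 4.

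The third question was whether the level of a subunit changed within a fraction. Here a positive value means a higher level than in ASP shSCR. Among sub-polysomal libraries, 0, 0 and 1 of the 10 subunits passed the threshold in NoASP shSCR, ASP shGRIN2D and ASP shDHPS, where 0%, 0.315% and 1.41% of all genes did. The subunit was Itgb4. Its sub-polysomal levels were 189, 242.6, 174 and 177.4 CPM in ASP shSCR, 177.5, 155, 138.3 and 157.6 in NoASP shSCR, 139.3, 120.2, 189.7 and 157.3 in ASP shGRIN2D, and 92.1, 104.1, 135.5 and 132.7 in ASP shDHPS. Every ASP shDHPS pellet was below every ASP shSCR pellet, a separation in either direction that 9.39% of all genes had. The log2 difference was −0.75 (SE 0.17, edgeR, adjusted p = 0.0193), and −0.77 without ASP shSCR replicate 1 (adjusted p = 0.0373). The Itgb4 call was lost without ASP shSCR replicate 2 (−0.64, edgeR, adjusted p = 0.0927), without ASP shDHPS replicate 1 (−0.66, adjusted p = 0.0997) or replicate 2 (−0.70, adjusted p = 0.0652), with library totals only (−0.65, adjusted p = 0.0567) and with the composition trend removed (−0.54, adjusted p = 0.0838). Over 22 alternatives the Itgb4 difference was −0.83 to −0.54 (edgeR or DESeq2, adjusted p = 0.000928 to 0.0997).

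In the polysomal libraries the Itgb4 difference in ASP shDHPS was −0.08 (SE 0.32, edgeR, adjusted p = 0.939). The difference between fractions is the test of the ratio given above, which did not pass. That value, −0.72, is ASP shSCR minus ASP shDHPS, so the fitted ratio was the higher one in ASP shDHPS. Polysomal Itgb4 was at 211.2 ± 49 CPM in ASP shSCR, 260.6 ± 88.1 in NoASP shSCR, 235.1 ± 107.6 in ASP shGRIN2D and 200 ± 51.6 in ASP shDHPS (SD, n = 4), and the groups overlapped. Per kb, Itgb4 over its partner Itga6 was 1.25 ± 0.318 in the sub-polysomal libraries of ASP shSCR (SD, n = 4), 0.805 ± 0.113 in NoASP shSCR, 0.852 ± 0.146 in ASP shGRIN2D and 0.648 ± 0.0707 in ASP shDHPS. In the polysomal libraries it was 0.733, 0.840, 0.804 and 0.824 in the same order. Epithelial keratins fell in the same libraries. Among sub-polysomal libraries of ASP shDHPS, 3 of the 5 epithelial markers fell, where 1.41% of all genes passed in either direction, Krt7 by 1.03 (edgeR, adjusted p = 0.00157), Krt18 by 1.00 (adjusted p = 0.032) and Krt8 by 0.74 (adjusted p = 0.049) on the log2 scale. Of 22 alternatives, Krt7 passed in 22, Krt18 in 16 and Krt8 in 11. Without ASP shSCR replicate 2, Krt18 fell by 0.60 and Krt8 by 0.53 (edgeR, adjusted p = 0.232 and 0.247). Epcam was at 266 ± 43.7 CPM against 388 ± 85.9 and Cdh1 at 136 ± 33.8 against 112 ± 17.2, and neither passed. The summed sub-polysomal level of the 5 markers was 1857, 1944, 2350 and 2101 CPM in ASP shDHPS and 3346, 5099, 2870 and 3068 in ASP shSCR, with Krt8 the most abundant on average. In ASP shGRIN2D the sum was 1807, 1868, 2295 and 1989 CPM, and Krt7 fell by 1.14 (edgeR, adjusted p = 0.000904, passing in 22 of 22 alternatives), while the Itgb4 difference there was −0.37 (adjusted p = 0.409). Their part in the Itgb4 result was not tested.

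Among the 8 better counted subunits, Itga2 had the largest polysomal differences in the silenced conditions. Its polysomal levels were 52.4, 63.1, 54.2 and 85.9 CPM in ASP shSCR, 52.9, 58, 67.5 and 78.6 in NoASP shSCR, 29.9, 37.5, 47.7 and 40.3 in ASP shGRIN2D, and 29.2, 31.6, 39.4 and 52.3 in ASP shDHPS. Every pellet of the silenced conditions was below every ASP shSCR pellet, by a margin of less than 0.1 CPM for the highest ASP shDHPS pellet. Of all genes, 2.68% in ASP shGRIN2D and 6.31% in ASP shDHPS were apart from ASP shSCR in this way in either direction. The summed polysomal level of the leukocyte markers (2 of 5 counted, mostly Cd68, with Ptprc near 0) was 11.2, 13.7, 11.2 and 13.1 CPM in ASP shSCR, 15.2, 15.6, 14.6 and 21.5 in ASP shGRIN2D and 20.9, 20, 28 and 24.6 in ASP shDHPS, so that both silenced conditions lay above ASP shSCR. The Cd68 differences were 0.44 and 0.94, and neither passed (edgeR, adjusted p = 0.555 and 0.0684). The part of these markers in the Itga2 values was not tested. The Itga2 differences were −0.72 in ASP shGRIN2D and −0.75 in ASP shDHPS, and neither passed (edgeR, adjusted p = 0.306 and 0.128), nor did they without ASP shSCR replicate 1 (−0.80 and −0.82, adjusted p = 0.565 and 0.113). In ASP shDHPS, Itga2 passed with DESeq2's Wald test (adjusted p = 0.0422) and with a block for the replicate number (edgeR, adjusted p = 0.0219), and the adjusted p ran up to 0.345 over 22 alternatives. Sub-polysomal Itga2 was at 37.3 ± 6.15 CPM in ASP shSCR, 43.8 ± 3.52 in NoASP shSCR, 32.2 ± 5.28 in ASP shGRIN2D and 38.8 ± 3.18 in ASP shDHPS (SD, n = 4), and each condition overlapped ASP shSCR. Among polysomal libraries, 0 of the 10 subunits passed in each comparison, where 0%, 0.0169% and 0.169% of all genes did in NoASP shSCR, ASP shGRIN2D and ASP shDHPS.

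**Figure D4:**
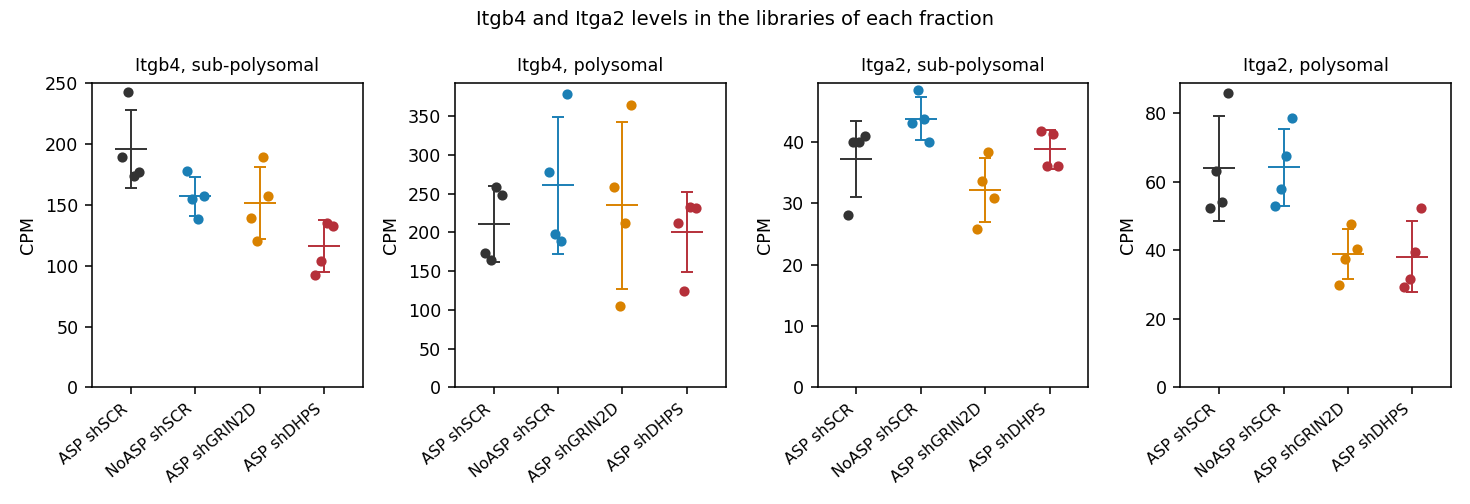
Levels of Itgb4 and Itga2 in CPM in each pellet, by fraction and condition, with mean and SD of 4. Sub-polysomal Itgb4 in ASP shDHPS and polysomal Itga2 in both silenced conditions lie below all ASP shSCR pellets.

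A pair of other subunits had groups that did not overlap in the sub-polysomal libraries without passing the threshold, one in NoASP shSCR, where 3.26% of all genes were apart from ASP shSCR, and one in ASP shDHPS, where 9.39% were. Itgb1 was at 276.6, 246.5, 272.9 and 279 CPM in ASP shSCR and at 343.4, 362.1, 322.8 and 325.8 in NoASP shSCR, a log2 difference of 0.33 (edgeR, adjusted p = 0.848). Itgb5, a chain of the vitronectin receptor αvβ5, differed by −0.34 in ASP shDHPS (edgeR, adjusted p = 0.289).

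The genes around the integrins were described from fixed lists. In the 3 comparisons of ratios, 1 of the 91 list genes tested passed, where 0%, 0% and 0.208% of all genes did. It was Dst, a plakin of the hemidesmosome, whose ratio was higher by 1.11 in ASP shSCR than in ASP shDHPS (edgeR, adjusted p = 0.0443), and it passed in 7 of 23 other settings. Against ASP shSCR, 5 list genes passed among sub-polysomal libraries of ASP shDHPS, where 1.41% of all genes did. Among other integrin subunits (17 listed, 9 counted), Itgb3, the chain of the vitronectin and fibrinogen receptor αvβ3, fell by 0.96, from 10.1 ± 1.75 to 5.17 ± 0.947 CPM (edgeR, adjusted p = 0.0241), a call lost without ASP shSCR replicate 1 or 2 or ASP shDHPS replicate 2 or 4 (adjusted p = 0.067 to 0.0928) and with library totals only (adjusted p = 0.0501). In ASP shGRIN2D sub-polysomal Itgb3 had the opposite sign, at 15.5 ± 2.61 CPM with every pellet above those of ASP shSCR, as 5.5% of all genes were apart in either direction, and a difference of 0.62 that did not pass (edgeR, adjusted p = 0.256). Polysomal Itgb3 was at 14 ± 4.13 CPM in ASP shSCR, 30.5 ± 16.2 in ASP shGRIN2D and 9.05 ± 3.45 in ASP shDHPS (SD, n = 4), and neither difference passed (edgeR, adjusted p = 0.32 and 0.425). Among matrix ligands (23 listed, 20 counted), Ccn1, a matricellular protein that binds integrins, rose by 1.27, from 17.5 ± 3.15 to 42 ± 5.32 CPM (edgeR, adjusted p = 0.00335). Among activators and adaptors (26 counted), Lims2, a PINCH adaptor of the integrin-linked kinase complex, rose by 1.90, from 0.651 ± 0.306 to 2.41 ± 0.493 CPM (edgeR, adjusted p = 0.0131), a call lost without ASP shSCR replicate 1 or 2 (adjusted p = 0.0607 and 0.0507). Among inactivators, traffic factors and tetraspanins (15 counted), Rab25, a GTPase of integrin recycling, fell by 0.69 (edgeR, adjusted p = 0.0365) and passed in 13 of 22 other settings. Of the hemidesmosome list (5 listed, 4 counted), Krt14, a basal keratin, fell by 0.78, from 70.7 ± 4.54 to 41.1 ± 4.64 CPM (edgeR, adjusted p = 0.00461). In the adhesion signalling list (17 counted), 0 genes passed in each comparison between conditions, and at an unadjusted p under 0.05 there were 2 of 17 among sub-polysomal libraries of ASP shDHPS, where 16% of all genes were. The lists' median differences there were −0.148, −0.0756, −0.00546, −0.0259, 0.134 and 0.051 for other subunits, ligands, activators and adaptors, inactivators with traffic and tetraspanins, hemidesmosome and adhesion signalling, beside 0.00809 over all genes. No gene of these 6 lists passed in NoASP shSCR or ASP shGRIN2D, nor among polysomal libraries.

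Between fractions the same lists divided in ASP shSCR as follows. Of the other integrin subunits, 4 of 9 passed toward polysomes and 0 toward the sub-polysomal fraction. Of the matrix ligands, 9 of 20 and 1 of 20 did, with osteopontin (Spp1) at 2.26 toward polysomes and Tgfb1 at −1.23. Of the activators and adaptors, 10 and 3 of 26 did. Of the inactivators, traffic factors and tetraspanins, 8 and 3 of 15 did, with the tetraspanins Cd9 at 2.17 and Cd81 at 1.51. Of the adhesion signalling genes, 6 and 3 of 17 did, with the GTPases Cdc42 at 1.60 and Rhoa at 1.33 and the GTPase-activating scaffold Git1 at −1.91. Of the hemidesmosome genes, Col17a1 at 1.31 and Plec, the plectin gene, at −0.51 passed. The shares among all genes are those given for the subunits, 20.8% and 18.9%. In NoASP shSCR, ASP shGRIN2D and ASP shDHPS, 23.7%, 23% and 21.8% of all genes passed toward polysomes and 20.6%, 20.4% and 21.3% away. In that order, other subunits passed in 4, 5 and 2 toward and 0 each away. Ligands had 12, 9 and 9 toward and 1 each away, and adaptors 13, 8 and 11, and 2, 4 and 3. Inactivators with traffic had 9, 8 and 11, and 4, 3 and 3. Signalling genes had 6 each, and 4, 3 and 5, and hemidesmosome genes 2 each, and 0, 1 and 2.

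Among 10908 genes with a mean of at least 50 counts, the ratios most like that of Itgb1 over the 16 pellets were those of Rfwd3, a ubiquitin ligase of DNA repair (r = 0.911), Ppip5k1, an inositol phosphate kinase (r = 0.875), and Ddr2, a collagen receptor kinase (r = 0.873). Those most like Itgb4 were Flii, an actin-remodelling protein (r = 0.98), Polr2a, the largest subunit of RNA polymerase II (r = 0.966), and Fbln2, the matrix protein fibulin-2 (r = 0.959). These values describe likeness over pellets that share depth and composition trends, and carry no test.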

How the data were processed

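The data are polysomal and sub-polysomal mRNA libraries of 4T1 spheroids, 4 pellets in each of 4 conditions. The counts per gene were deposited by the authors, who, per their processing notes and Methods, used Trim Galore 0.6.6, FastQC 0.11.9, STAR 2.6.1 on GRCm39 and Salmon 1.4.0, rounded Salmon's estimates to integers and kept genes expressed in at least 3 of 4 replicates of some group. The authors' deposited results of their own comparisons (log2 differences, p-values, scores) were not used, and 0 sample columns belonged to other samples.

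Counts were tested with edgeR 4.0.16 in R 4.3.3 (TMM, quasi-likelihood F-test, two-sided). Ratios were fitted on all 32 libraries with a term for each of the 16 pellets and a ratio for each condition. Levels were fitted on the 16 libraries of a fraction. Benjamini-Hochberg adjustment ran over all 17757 genes, with a threshold of 0.05. Pellet ratios used TMM over all 32 libraries and a prior count of 2, and levels TMM within a fraction. Pellets are independent cultures per the Methods, and within groups no pair of libraries agreed within sampling noise (lowest chi-square per degree of freedom 24.9). DESeq2 1.42.0, other scalings, a filter on low counts, other designs and each pellet left out were alternatives. The steps were tested on simulated counts with changes larger than the subunit differences between conditions. Those counts held no composition trend that varied between pellets of a condition, so they do not show how small a change could be called here. Standard errors of the 8 better counted subunits, 0.24 to 0.36 for ratio differences, 0.16 to 0.18 for sub-polysomal and 0.19 to 0.36 for polysomal levels, limit what can be called, and Itgb6 and Itgb8 had too few reads to measure.

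The subunits, lists and tests were chosen with earlier results of these data known. Named genes were the 10 subunits, up to 4 called genes with the smallest adjusted p of each list in a comparison (up to 3 with the highest level where none was called), the silenced genes, and for Itgb1 and Itgb4 the 3 genes with the most correlated ratios. The GC trend was added after values had been seen. GC, lengths and positions came from GENCODE M21 on GRCm38, not the build of the counts, used 1 transcript per gene, and covered 17305 genes (97.5%) for GC and 13354 (75.2%) for transcript length and start codons, among them all 10 subunits. Salmon's split of reads between isoforms was not checked.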

Additional observations from a re-analysis of the deposited data

Results flagged for a closer look

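Of 120 groups of 4 pellets tested (40 for the ratio and 80 for the level of the 10 subunits), 7 held a pellet far from the other 3, where chance gives about 1 in 20, or 6. The Itga5 ratio in ASP shSCR replicate 2 was −0.51. The Itga2 sub-polysomal level in ASP shSCR replicate 1 was 28.1 CPM, the Itga3 sub-polysomal level in ASP shSCR replicate 2 was 558.8 CPM, and the Itga6 sub-polysomal level in ASP shSCR replicate 3 was 137.2 CPM. Among polysomal libraries of ASP shDHPS, Itga5 was at 28.6 CPM and Itgb8 at 0.363 CPM in replicate 2, and Itga6 was at 209.1 CPM in replicate 4. Beside the values of the same group, these pellets were the highest or the lowest of 4.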

How the results depend on the processing

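The ratio comparisons held 0 called subunits under all alternatives run. With a replicate block across conditions, the count within ASP shDHPS went from 3 to 5 (Itga5 and Itgav added), and with it among polysomal libraries of ASP shDHPS from 0 to 1 (Itga2), as with DESeq2's Wald test (1). The sub-polysomal count in ASP shDHPS, which is Itgb4, went from 1 to 0 with library totals only and with the GC trend removed. The block changed no other count of subunits by over 1.5 times. With 1 pellet left out, the counts within ASP shSCR were 2 to 6, within NoASP shSCR 2 to 6, within ASP shGRIN2D 2 to 5 and within ASP shDHPS 2 to 4, and the sub-polysomal count in ASP shDHPS was 0 to 1. Same-numbered pellets of different conditions correlated in their ratios at a median of 0.125 over 24 pairs (lowest −0.242) and others at −0.0301, in polysomal levels at 0.273 (lowest −0.176) against −0.0868, and in sub-polysomal levels at 0.206 (lowest −0.25) against −0.0813. By ratio, polysomal and sub-polysomal level, 10, 11 and 13 of 16 pellets matched best with their own number. This is a hint of shared replicate sets from the data, but pairs with negative correlations occurred in each measure and no label ties the numbers to a batch, so the tests without the block were kept. With the block, the ratio differences, as ASP shSCR minus ASP shDHPS, were 0.77 for Itga2 and −0.72 for Itgb4 (edgeR, adjusted p = 0.0574 and 0.149), each with 1 sign in all 4 same-numbered pairs. The sub-polysomal Itgb4 difference with the block, as ASP shDHPS minus ASP shSCR, was −0.77 (edgeR, adjusted p = 0.00481).

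Over all genes, 37 passed in the ratio against ASP shDHPS, 0 with DESeq2 size factors, with the GC trend removed or without the pellet term, 96 with a filter on low counts, 231 with the replicate block, 664 with DESeq2 and 0 to 159 with 1 pellet left out. Sub-polysomal calls were 56 in ASP shGRIN2D (231 with DESeq2, 195 with the block, 23 to 64 with 1 pellet left out) and 251 in ASP shDHPS (652, 758 and 80 to 370, and 133 with the GC trend removed). Polysomal calls were 3 in ASP shGRIN2D (69, 27 and 0 to 98, with 7 under DESeq2 size factors or the count filter and 23 with the GC trend removed) and 30 in ASP shDHPS (554, 405 and 0 to 304, and 4 with library totals only). In NoASP shSCR, 0 genes passed in either fraction, and 1 in each with DESeq2. Library totals moved the all-gene median ratio by 0.152 in ASP shSCR, 0.128 in NoASP shSCR and 0.172 in ASP shGRIN2D, and the ratio difference against ASP shDHPS by 0.105. Subunit values changed sign in 37 of 847 other settings and 86 of 2080 left-out-pellet settings, none of them called. The cause of these changes was not tested.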
